A study of Mus musculus with 12 samples.

Results

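The 10 genes described here encode subunits of esBAF, the SWI/SNF-type chromatin remodeling complex of mouse embryonic stem cells (mESCs), and of its sister assemblies: Smarca4, Smarcc1, Smarcb1, Smarcd1, Smarce1, Arid1a, Actl6a, Dpf2, Brd9 and Brd7. They were chosen by name and are 10 of the 31355 gene names of the GENCODE M1 annotation with an exonic value. M1 lists 53 transcripts of the 10 genes, of which 45 had an exonic and an intronic row, or 90 of the 213131 rows. The study labeled mESCs with 4-thiouridine (4sU), a uridine analog that is built into RNA as it is made, so that new RNA can be biotinylated and pulled down. All cells came from the DTCM23/49 XY line, grown with serum and LIF on gelatin, and all of them received 200 µM 4sU, for 15, 30 or 60 min. Labeled (pulled-down) RNA and total RNA were sequenced at each time in 2 biological replicates, which were parallel cultures split from a common one and passaged apart. This gave 6 labeled and 6 total RNA libraries from 1 line. The 6 libraries of a kind therefore share 2 cultures.

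SWI/SNF complexes use ATP to move or evict nucleosomes, and so open promoters and enhancers to transcription factors. They are built from a catalytic ATPase, a core of scaffold subunits and variable subunits that set the type of complex, many of which have a close relative that takes the same place in other cells. In mESCs the esBAF form, with Smarca4, Smarcc1 and Arid1a, is known to occupy many sites of the pluripotency factors and to be needed for self-renewal. Brd9 and Brd7 are bromodomain proteins that mark the non-canonical BAF and the PBAF complexes rather than esBAF itself.

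As judged from the values, since no source used here names the unit, it is a length-normalized abundance close to 20 times TPM, in which exons and introns of a library share a fixed total, so every value is a share of its library. No value of 1 or less is listed, and missing values were taken as 0. The depth of each library is unknown. Overlapping transcripts of a gene repeat each other's signal: in 2100 pairs of protein-coding transcripts that share at least 95% of exon bases, the lower value had a median of 0.886 of the higher. Levels between genes are therefore given for 1 representative transcript per gene, the protein-coding one with the highest mean exonic value in total RNA, while changes within a gene were tested on its summed transcripts. Introns took 6.53 to 7.41% of the signal in the total RNA libraries and 6.99 to 14.8% in the labeled ones. The labeled libraries of replicate 2 at 15 and 60 min, at 7.24% and 6.99%, lay within the range of total RNA. Both are kept in every value below, and what the fits of labeled against total RNA gave without each is stated. The tests of transcript shares and of labeling time, and the rates, were not repeated without each. All 10 mESC markers were present, with a summed level of 17001 to 22676 in total RNA and 16769 to 27267 in labeled RNA. Of the endoderm, mesoderm, trophectoderm and fibroblast markers measured, only Thy1 had a median of at least 20 in total RNA, and Sox17, Foxa2, Afp, Mesp1, Cdx2, Elf5, Col3a1, Dcn and Postn were at 0 in every total RNA library. The neural markers Tubb3 and Neurod1 had medians of 262 and 24.4, and the remaining neural marker measured, Pax6, of 2.61.

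Promoter sequences from RefSeq (GRCm38.p6, the build also called mm10) were matched for 9 members, with 11 start sites, and not for Smarce1. In windows from 250 bases before to 50 after the start, these promoters held a median of 33 CpG, with a range of 20 to 40, against a median of 7 over all 32851 promoters. The GC box GGGCGG, searched on both strands like all motifs here, occurred in 8 of 9 members and in 35.7% of all promoters, and Dpf2 was the member without it. The ETS-type motif CCGGAAG occurred in 2 of 9 members, Smarcc1 and Brd9, and in 8.86% of all promoters. CCAAT occurred in 1 member, Dpf2, against 37.4% of all promoters, and the YY1 motif in Smarcd1 alone, against 0.852%. TATAAA, found in 13.6% of all promoters, and the NRF1 motif, found in 0.971%, occurred in none of the members. A match describes the letters of the window and is not a binding site. The 100 bases before the start are shown for the members with the highest and the lowest exonic level and for the member without a GC box, with searched motifs that lie whole within these bases in capitals. Brd9 has 2 start sites, and the upstream one is shown. The first transcribed bases of the Smarcc1 site, both Brd9 sites and 1 Arid1a site were in no coding M1 transcript of the gene.
Smarcc1, chr9:110131924-110132023, plus strand: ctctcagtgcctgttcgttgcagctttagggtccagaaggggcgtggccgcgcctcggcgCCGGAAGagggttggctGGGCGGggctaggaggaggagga
Brd9, chr13:73937711-73937810, plus strand: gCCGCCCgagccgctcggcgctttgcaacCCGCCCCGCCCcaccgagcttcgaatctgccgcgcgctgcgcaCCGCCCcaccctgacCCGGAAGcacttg
Dpf2, chr19:5912872-5912971, minus strand: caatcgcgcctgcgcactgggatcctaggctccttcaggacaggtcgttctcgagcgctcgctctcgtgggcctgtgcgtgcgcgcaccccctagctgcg
In Smarcc1 the ETS-type motif lies upstream of the GC box. In Brd9 the GC boxes, all on the opposite strand (CCGCCC), lie upstream of the ETS-type motif. Dpf2 has no searched motif whole within the stretch shown.

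Among the members, the spliced transcripts spanned a wide range in total RNA, and the ATPase and most core subunits lay above the typical expressed gene. Smarcc1, the scaffold subunit BAF155 (mm9, chromosome 9, 110034541 to 110142682, plus strand, 28 exons), was the highest. Its exonic value in total RNA ran from 669 to 907 with a median of 770, and its mean of 766 ± 85.7 (SD, n = 6) lay at the 91.5th percentile of the 9082 genes measured this way. Smarca4, the ATPase BRG1 that drives remodeling (chromosome 9, 21420613 to 21508674, plus strand, 34 exons), ran from 228 to 309 with a median of 269. Arid1a, the DNA-binding subunit that defines canonical BAF (chromosome 4, 133234923 to 133312684, minus strand, 20 exons), ran from 256 to 333 with a median of 290.0.

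Actl6a, an actin-related subunit that docks on the ATPase (chromosome 3, 32607468 to 32625890, plus strand, 14 exons), was the next after Smarcc1, at 376 ± 73.6. Its values spread widely, from 262 to 469, and its 3′ end overlaps Mrpl47 on the opposite strand. Smarce1, an HMG-box core subunit (chromosome 11, 99070361 to 99092331, minus strand, 11 exons), had a mean of 277 ± 54.3. Smarcb1, the core subunit that contacts the nucleosome (chromosome 10, 75359514 to 75384362, minus strand, 9 exons), had a mean of 204 ± 24.6. Dpf2, a PHD-finger reader of histone marks (chromosome 19, 5896516 to 5913010, minus strand, 12 exons), had a mean of 181 ± 14.4.

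The members of the other assemblies, and Smarcd1, were lower. Brd7 (chromosome 8, 90854938 to 90886093, minus strand, 17 exons) had a mean of 115 ± 9.54. Smarcd1, a core subunit that links the complex to transcription factors (chromosome 15, 99532718 to 99544426, plus strand, 13 exons), had a mean of 69.9 ± 6.12, from 60.9 to 78.3. Brd9 (chromosome 13, 74075286 to 74098342, plus strand, 16 exons) was the lowest, at 44.2 ± 7.45, from 35.6 to 53.6, or the 24.9th percentile. The ranges over the 6 libraries overlapped between neighbours for Actl6a and Arid1a, Arid1a and Smarce1, Smarce1 and Smarca4, and Smarcb1 and Dpf2, so the order within these pairs is not set by the data. The other neighbours did not overlap.

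**Figure D1:**
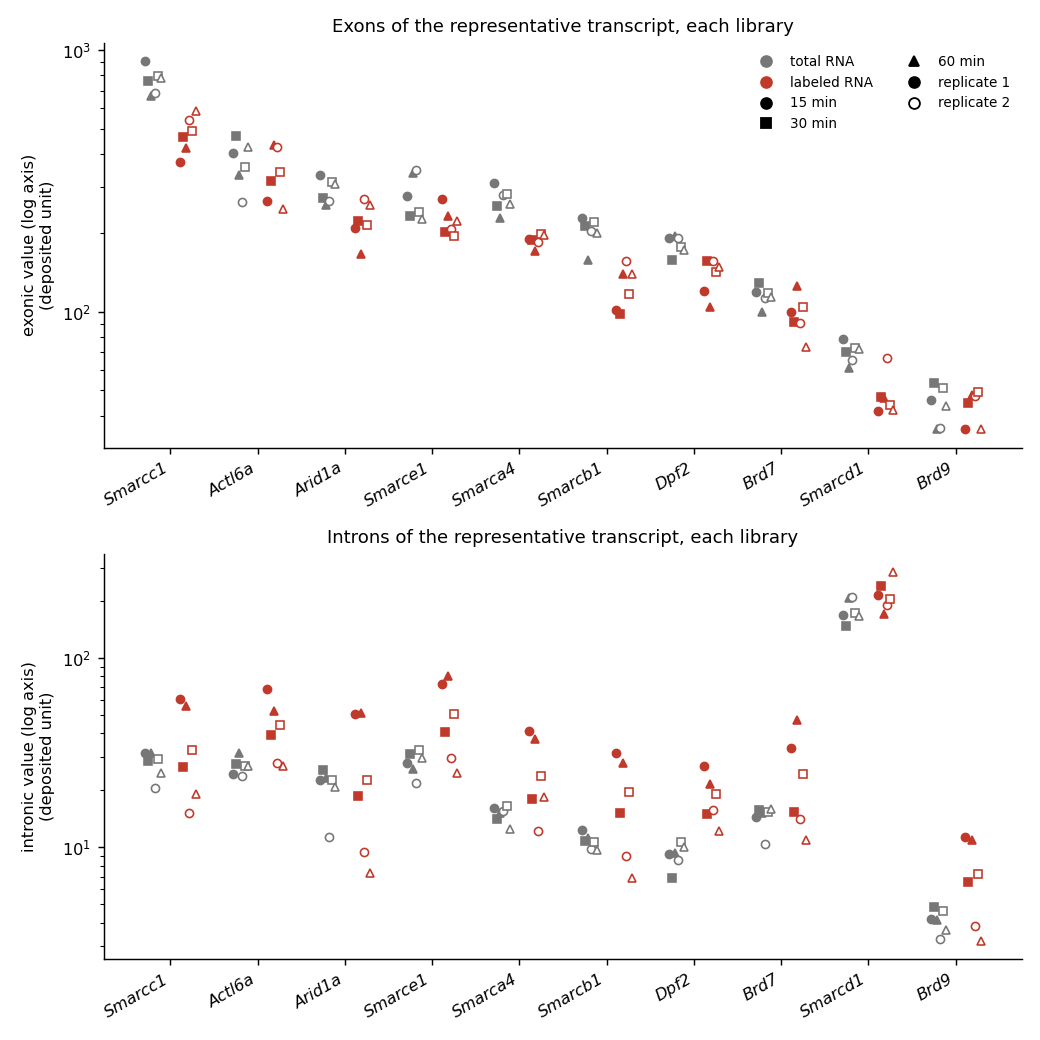
Exonic (top) and intronic (bottom) values of the representative transcript of each member in every library, on log axes in the deposited unit. Grey points are total RNA and red points labeled RNA, symbols give the labeling time and filled or open points replicate 1 or 2. Labeled exonic values lie below all total ones for Smarcc1, Smarca4, Smarcb1 and Dpf2, and Smarcd1 alone has introns above its exons.

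Several subunits have a relative that fills the same place in the complex, and in these cells 1 of the pair usually dominated. Smarca4 exceeded Smarca2, the alternative ATPase BRM, which ran from 15.8 to 46.2 with a mean of 26.4 ± 10.9 (SD, n = 6). The mean of log2 ratios was 3.37 ± 0.57 and Smarca4 was higher in 6 of 6 total RNA libraries. Smarcc1 exceeded Smarcc2, BAF170, which ran from 21.5 to 28.7, by 4.93 ± 0.25. Arid1a exceeded Arid1b, at 16.4 ± 2.87, by 4.08 ± 0.21. Over the PBAF subunit Arid2, at 152 ± 33.5, the log2 ratio of Arid1a was 0.96 ± 0.26 on representative transcripts and 2.62 on gene sums. All 4 reached the two-sided exact sign-flip permutation p of 0.031, the smallest that 6 libraries allow, with an adjusted p of 0.0344 over 11 pairs, on the representative transcripts and on gene sums alike.

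The neuronal forms in the listed pairs, Actl6b, Dpf1 and Dpf3, were low or missing on representative transcripts. Actl6b was listed at 0 in 5 of 6 total RNA libraries, with 1.35 in the other, against 262 to 469 for Actl6a, and no ratio is given. Dpf3 was at 0 in 3 libraries and at most at 3.39, and Dpf1 ran from 1.05 to 7.55, against 158 to 194 for Dpf2. On gene sums Dpf1 ran from 1.05 to 53.9 and Dpf2 from 1188 to 1346. Dpf2 exceeded Dpf1 by a log2 ratio of 4.92 ± 0.67 (exact sign-flip permutation p = 0.031, adjusted p = 0.0344). Phf10, the related PHD-finger subunit of PBAF, was above Dpf2 in 6 of 6 libraries at 387 ± 48.2, with a log2 ratio of -1.09 ± 0.17 for the representative transcripts (exact permutation, adjusted p = 0.0344). On gene sums that ratio was -0.17 and was not called (exact permutation, adjusted p = 0.125).

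Smarcd1 was the core subunit without a clear lead over its relative. It exceeded Smarcd3, at 4.95 ± 0.91, by 3.59 ± 0.26, but Smarcd2 stood at 63.6 ± 7.60 and Smarcd1 was higher in only 4 of 6 libraries. The log2 ratio of Smarcd1 over Smarcd2 was 0.14 ± 0.24 for the representative transcripts (exact sign-flip permutation p = 0.25) and -2.91 on gene sums (p = 0.031, exact), so its direction turns with how transcripts are combined. Brd9 lay below Brd7 in 6 of 6 libraries, by a log2 ratio of -1.38 ± 0.15 for the representative transcripts (exact permutation p = 0.031, adjusted p = 0.0344), and by -4.06 on gene sums. Those sums add 1 transcript of Brd9 and 7 of Brd7.

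**Figure D2:**
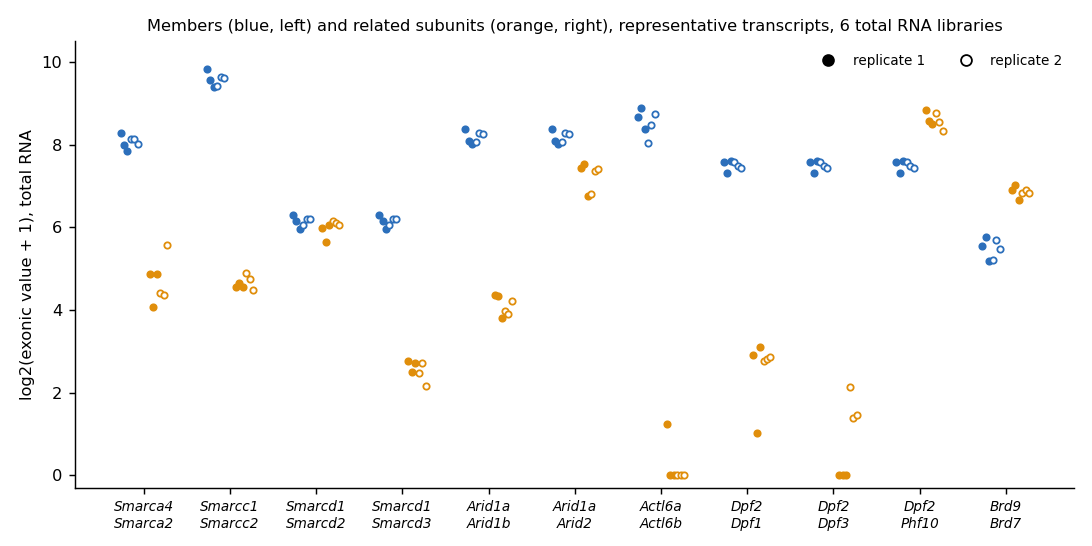
Members (blue, left of each pair) beside a related subunit (orange, right) in the 6 total RNA libraries, as log2(exonic value + 1) of the representative transcript. Filled points are replicate 1 and open points replicate 2. Smarcd1 and Smarcd2 overlap, Phf10 lies above Dpf2, and Actl6b sits at 0 in 5 of 6 libraries.

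The first comparison asked how much of each subunit's spliced RNA was recovered in the new RNA. A gene whose RNA is long-lived holds a smaller share of labeled than of total RNA. The exonic sums of 6 of the 10 members were lower in labeled than in total RNA and none was higher, where 11.9% of the 13733 genes tested were called lower and 5.38% higher (limma, adjusted p below 0.05). All 10 estimates were below 0, as were 7517 of the 13733 genes. Their median was -0.43 on the log2 scale, against -0.05 over all genes. A further fit took each labeled library and the total library of the same time and replicate number as a block (the replicate block). Smarca4 and Smarcc1 stayed called in it, where 6.17% of all genes were called lower and 3.43% higher. On representative transcripts alone the same 6 members were called, where 19.1% of 9082 were lower and 4.88% higher. On sums without labeled RNA of 15 min in replicate 2 the same 6 were called, where 2125 genes were lower and 775 higher. Without labeled RNA of 60 min in replicate 2 the same 6 were called, where 1529 were lower and 1051 higher. In that fit 8 of the 10 member estimates were below 0. With 3 libraries against 3, leaving out either replicate, no member was called, and simulated log2 changes of 1 were then recovered for 0 of 200 genes.

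The members called included the ATPase and the core subunits Smarcc1, Smarcb1 and Smarcd1. Smarca4 had representative exonic values of 171 to 198 in labeled RNA, with a median of 189, and of 228 to 309 in total RNA. Its groups did not overlap, and its summed value fell by 0.65 on the log2 scale (SE 0.09, adjusted p = 0.00155). Smarcc1 ran from 375 to 583 in labeled and from 669 to 907 in total RNA. It did not overlap either and fell by 0.68 (SE 0.13, adjusted p = 0.00604). Smarcb1 ran from 97.6 to 156 in labeled RNA, just under the lowest total RNA library at 158. Its summed value ran from 349 to 489 in labeled and from 467 to 692 in total RNA, with 4 of 6 labeled libraries below the range, and fell by 0.58 (SE 0.14, adjusted p = 0.0147). These 3 genes were called with any 1 of the 12 libraries left out. Dpf2 was the fourth member without overlap, at 104 to 157 against 158 to 194. A gap of this kind was found below total RNA for 10.7% of the 9082 representative transcripts, and above it for 2.05%.

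Smarcd1, Dpf2 and Arid1a were called on less margin. Smarcd1 ran from 41.9 to 66.3 in labeled RNA, with a median of 45.4, and from 60.9 to 78.3 in total RNA. The labeled library of 15 min, replicate 2, at 66.3, overlapped total RNA and the other 5 did not, and the summed value fell by 0.55 (SE 0.15, adjusted p = 0.0242). Dpf2 fell by 0.45 (SE 0.13, adjusted p = 0.0356) and Arid1a by 0.40 (SE 0.11, adjusted p = 0.0300). With 1 library left out in turn, Smarcd1 remained called in 5, Arid1a in 6 and Dpf2 in 4 of 12 cases, with adjusted p up to 0.0629, 0.0795 and 0.0811. Quantile normalization ended the calls of Arid1a (adjusted p = 0.127) and Dpf2 (adjusted p = 0.136), and the use of protein-coding transcripts alone that of Dpf2 (adjusted p = 0.0750). All 3 lost the call without total RNA of 15 min in replicate 1, total RNA of 30 or 60 min in replicate 2, labeled RNA of 15 min in replicate 1 or labeled RNA of 30 min in replicate 2. Smarcd1 also lost it without either library of 30 min in replicate 1, Arid1a without labeled RNA of 30 min in replicate 1, and Dpf2 without total RNA of 30 or 60 min in replicate 1 or of 15 min in replicate 2.

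The remaining 4 members were not called. Smarce1 had an estimate of -0.19, Brd7 of -0.16, Actl6a of -0.11 and Brd9 of -0.02. Brd9 had a representative exonic value of 43.5 ± 6.38 in labeled and of 44.2 ± 7.45 in total RNA (SD, n = 6 each), and the estimate of its change had an SE of 0.15.

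**Figure D3:**
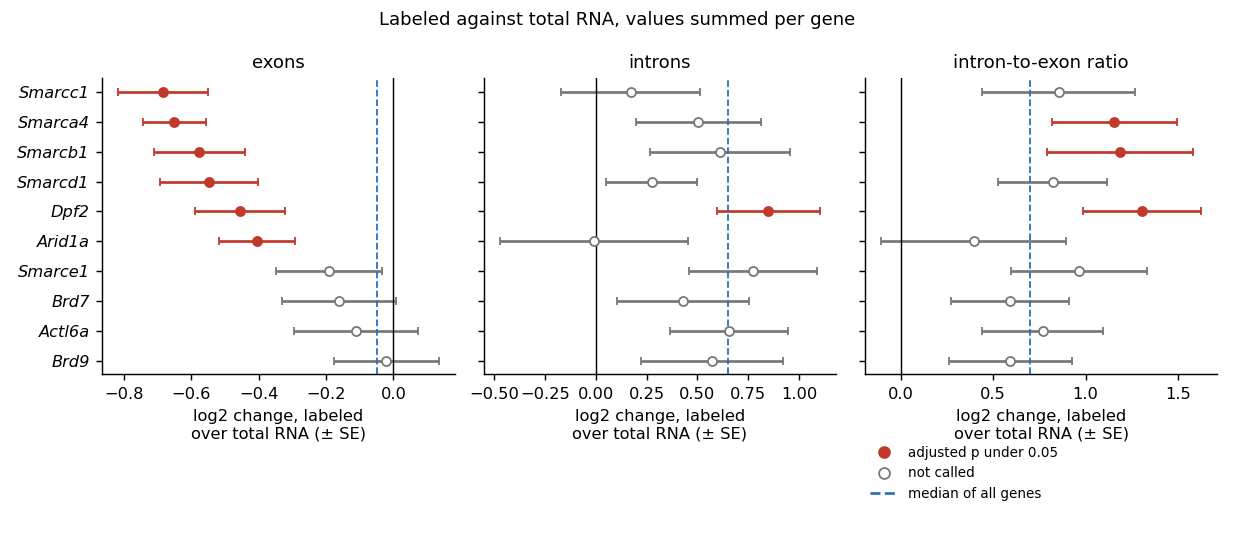
Log2 change of labeled over total RNA for each member on gene sums, for exons, introns and the intron-to-exon ratio, with SE. Red points have an adjusted p below 0.05, open points do not, and the dashed line is the median of all genes. Exonic changes of 6 members lie well to the left of the median of -0.05, while intronic changes lie on both sides of the median of 0.65.

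Introns mark RNA that has not yet been spliced. Their median log2 change in labeled RNA over the 14740 genes tested was 0.65 on the deposited scale, and 30.2% were called higher and 0.21% lower. Among the members 1 of 10 was called, Dpf2, and the median estimate was 0.54. Estimates were above 0 for 9 of 10 members and for 14010 of the 14740 genes. The representative Dpf2 transcript had intronic values of 12.2 to 26.9 in labeled and of 6.91 to 10.7 in total RNA. It was the only member whose intronic groups did not overlap, as in 17.3% of all representative transcripts, and its sum rose by 0.85 (SE 0.25, adjusted p = 0.0227). With 1 library left out in turn, Dpf2 remained called in 7 of 12 cases, and not without total RNA of 15 or 30 min in replicate 1, total RNA of 15 or 60 min in replicate 2 or labeled RNA of 30 min in replicate 2. With the replicate block Actl6a was called as well (adjusted p = 0.0468), where 39.3% of all genes were higher. On representative transcripts Dpf2 alone was called, where 31.6% of 10662 were higher.

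For the other members the 6 labeled libraries were split. Arid1a had intronic values of 50.9 and 51.5 in the labeled libraries of replicate 1 at 15 and 60 min, and of 9.42 and 7.28 in those of replicate 2. The former lay above and the latter below its total RNA range of 11.4 to 25.7, and its change was -0.01 (SE 0.46). Smarcc1 was at 60.4 and 56.0 against 15.2 and 19.2 in the same libraries, and its change was 0.17. Brd9 had 11.4 and 10.9 against 3.84 and 3.21, and its change was 0.57. These 4 libraries are also those with the highest and the lowest intronic share of labeled RNA, and the part of this in the results was not tested. Smarce1 had an estimate of 0.77 (adjusted p = 0.0719), Actl6a of 0.66, Smarcb1 of 0.61, Smarca4 of 0.51, Brd7 of 0.43 and Smarcd1 of 0.28. Without the labeled library of replicate 2 at 15 min, 5 members were called higher (Actl6a, Dpf2, Smarca4, Smarcb1 and Smarce1), and without that at 60 min 4 were (Actl6a, Dpf2, Smarcb1 and Smarce1), while all genes called higher rose from 4448 to 7996 and 7477.

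The direction of these intronic changes depends on the scale. Quantile normalization, which gives every library the same distribution of intronic values, moved the median of all genes from 0.65 to -0.04 and the split of calls from 4448 higher and 31 lower to 884 and 798. Under it 8 of 10 members had estimates below 0, and Smarcc1 was called lower, at -0.53 (adjusted p = 0.0238). The intron-to-exon ratio compares both within a library. It rose in labeled RNA for 3 of 10 members, where 26.4% of 10207 genes were called higher. These were Dpf2 at 1.30 (SE 0.32, adjusted p = 0.0123), Smarca4 at 1.16 (SE 0.34, adjusted p = 0.0240) and Smarcb1 at 1.19 (SE 0.39, adjusted p = 0.0390). All 10 estimates were above 0, as were 9603 of the 10207 genes, with a median of 0.84 against 0.70 over all genes. Dpf2 was called with any 1 library left out. Smarca4 lost its call in 6 of 12 cases, without total RNA of 15 or 30 min in replicate 1, total RNA of 15 or 60 min in replicate 2, labeled RNA of 60 min in replicate 1 or labeled RNA of 30 min in replicate 2. Smarcb1 kept it in 3, without total RNA of 60 min in replicate 1 or labeled RNA of 15 or 60 min in replicate 2. Without the labeled library of replicate 2 at 15 min 9 members were called, all but Arid1a, where 6222 of 10207 genes were called higher. Without that at 60 min 5 members were called, where 3941 genes were higher. Under quantile normalization 1 member was called, Dpf2, where 581 genes were higher and 521 lower.

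**Figure D4:**
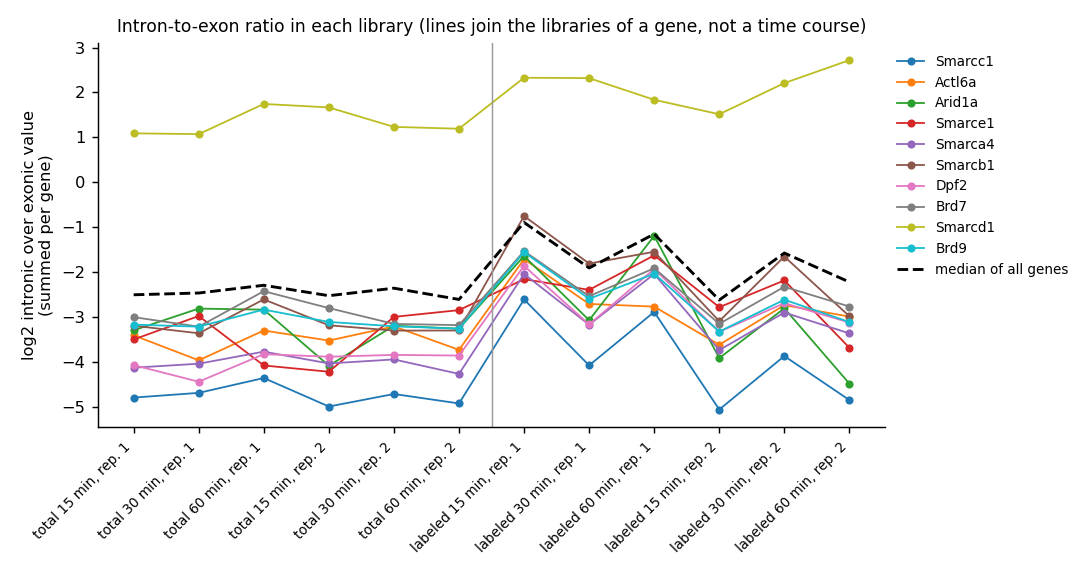
Log2 of the intronic over the exonic sum of each member in the 6 total (left) and 6 labeled (right) libraries, with the median of all genes as a dashed line; lines join the libraries of a gene and show no time course. Most members lie below the dashed line in most libraries, and Smarcd1 alone lies above 0 in all 12 libraries.

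Relative to their spliced RNA, most members carried less intronic RNA than the median gene, and Smarcd1 carried more than almost any other gene. In total RNA the intronic value of the representative transcript was 3.61% of the exonic one for Smarcc1, 5.05% for Dpf2, 5.28% for Smarcb1 and 5.59% for Smarca4. It was 7.15% for Actl6a, 7.25% for Arid1a, 9.30% for Brd9, 10.2% for Smarce1 and 12.6% for Brd7, and the median over 8607 genes was 10.3%. Members below that median ran from the 16.8th percentile for Smarcc1 to the 49.5th for Smarce1, and Brd7 was at the 58.7th. For Smarcd1 the intronic value was 255% of the exonic one, at the 99.6th percentile, and 1.37% of genes had more intronic than exonic signal. Its intronic value ran from 148 to 209 in total RNA and from 170 to 283 in labeled RNA, above its exonic value in each of the 12 libraries. M1 annotates a short protein-coding gene, Gm17241, on the opposite strand within the Smarcd1 locus (mm9, chromosome 15, 99536940 to 99537278), and Gm17349 across its start (99532607 to 99532900). The strandedness of the counting is not given in the sources used here, so reads of either strand cannot be told apart, and the part of these genes in the Smarcd1 signal was not tested.

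Of the 45 measured transcripts of the members, 44 passed the filter on low values, and 14 were lower in labeled RNA and none higher, where 12% of 45537 transcripts were called lower and 5.28% higher. All 19 protein-coding transcripts had estimates below 0 and 10 of them were called. These come from the 10 genes and are not independent. Sums of protein-coding transcripts were called lower for 1702 of 10044 genes and higher for 509, with a median of -0.11 over all. All 4 transcripts of Smarca4 were called, and these share most of their exons. The largest falls were in a processed transcript of Dpf2 (ENSMUST00000154365, by 0.94, SE 0.16, adjusted p = 0.00329), in Smarca4 transcripts ENSMUST00000098948 (by 0.77, adjusted p = 0.00112) and ENSMUST00000172996 (by 0.74, adjusted p = 0.00172), and in the representative Smarcb1 transcript (by 0.71, adjusted p = 0.00936). The representative transcripts of Arid1a and Dpf2 were not called in this fit, with adjusted p of 0.0618 and 0.0531. Without labeled RNA of 15 min in replicate 2, 16 member transcripts were lower and none higher, where 7316 of all transcripts were lower and 3123 higher. Without labeled RNA of 60 min in replicate 2, 16 member transcripts were lower and 2 higher, ENSMUST00000128215 of Smarce1 and ENSMUST00000135400 of Actl6a. Of all transcripts, 5335 were then lower and 3548 higher.

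For 6 members part of the exonic signal lies in transcripts that M1 does not class as protein-coding, such as retained-intron and processed transcripts. Their share of the Smarcb1 sum was 37.2 to 42.5% in total RNA and 39.4 to 48.1% in labeled RNA. It was above the range of total RNA in 4 of 6 labeled libraries, and the means differed by 4.91 percentage points (two-sided exact permutation test over all divisions of the libraries, p = 0.0130, adjusted p = 0.0390 over the 6 members). For Actl6a the share was 42.7 to 47.8% in total and 46.3 to 49.9% in labeled RNA, with 5 of 6 labeled libraries above the range and a difference of 3.22 points (exact permutation p = 0.0130, adjusted p = 0.0390). With the libraries paired by replicate and time, the share was higher in labeled RNA in 6 of 6 pairs for both genes. Both then had the smallest p that 6 pairs allow (exact sign-flip permutation p = 0.031), which adjusted over the 6 members gives 0.0938. With only these 2 members at the smallest p, the paired test could not have called them. Smarce1 (1.43 points), Dpf2 (-1.94), Brd7 (1.10) and Arid1a (0.588) were not called, with exact permutation adjusted p of 0.140 to 0.331. These shares count shared exons once per transcript, and so are not shares of molecules. They were computed for the members alone, so whether other genes shift in the same way was not tested.

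In 4 members the highest transcript was not protein-coding. That of Dpf2, the retained-intron transcript ENSMUST00000123029, had mean exonic values of 252 in total and 161 in labeled RNA and fell by 0.69 (adjusted p = 0.0238). Those of Actl6a (ENSMUST00000153779, retained intron, 459 and 446) and Brd7 (ENSMUST00000135471, processed transcript, 163 and 176) were not called. For Smarce1, ENSMUST00000156160, a processed transcript of 2 exons, had an exonic value of 438 to 1475 in total RNA, with a mean of 860, against 277 for the representative transcript. Its total RNA values were 731, 451 and 1462 at 15, 30 and 60 min in replicate 1 and 1475, 600.1 and 438 in replicate 2, so its replicates differed more than 2-fold at 15 and 60 min. Its labeled mean was 654 and it was not called (adjusted p = 0.550).

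The length of labeling made no detectable difference to the members. Between 15 and 60 min the estimates for exonic sums ran from -0.25 to 0.14 in labeled RNA and from -0.24 to 0.21 in total RNA, and the difference between these changes ran from -0.26 to 0.34. No member was called in any of the 3 contrasts by limma, and none had an unadjusted p below 0.05, where 0.0%, 0.0218% and 0.0% of the 13733 genes were called lower and 0.0% higher in each. Groups hold 2 libraries here, and in simulated data 143 of 200 genes with a log2 change of 2 were recovered, so smaller changes over time may have been missed.

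From labeled and total RNA, rates of synthesis (labeled exonic value per hour of labeling), processing (synthesis over intronic value in total RNA) and degradation (synthesis over exonic minus intronic value in total RNA) were computed as plain ratios. They restate the values above and were not tested. Gene sums count shared exons once per transcript, so synthesis on sums depends on how many transcripts of a gene are annotated. On sums the members had medians of 1538 units per hour for synthesis, 24.1 per hour for processing and 2.02 per hour for degradation. Over all genes these were 408, 13.7 and 2.76. On representative transcripts the members had a median synthesis rate of 382 units per hour, against 215 over all genes, and 8 of 10 lay above that median. Smarcc1 had the highest at 1097, followed by Actl6a at 793, Arid1a at 535, Smarce1 at 525 and Smarca4 at 439. Smarcd1 and Brd9 had the lowest, at 117 and 101. Because all libraries have the same total, the rates shrink as the labeling time grows: that of Smarca4 was 747 at 15, 387 at 30 and 184 at 60 min.

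Processing was faster than the median gene for 7 of 10 members, with a median of 27.3 per hour against 20.3. Smarcc1 had the highest at 40.5 and Dpf2 the next at 36.4, while Brd7 had 16.5 and Smarcd1, with its high intronic value, 0.652. Degradation was slower than the median gene for 8 of the 9 members with a rate, with a median of 1.94 per hour against 2.45. Smarcc1 at 1.46, Smarcb1 at 1.46 and Smarca4 at 1.67 had the lowest, and relative to the median of all genes they were lower in 6 of 6 library pairs, by log2 differences of -0.67 ± 0.29, -0.68 ± 0.32 and -0.47 ± 0.24 (SD, n = 6). Brd9 had the highest at 2.54, and Smarcd1 had no rate.

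**Figure D5:**
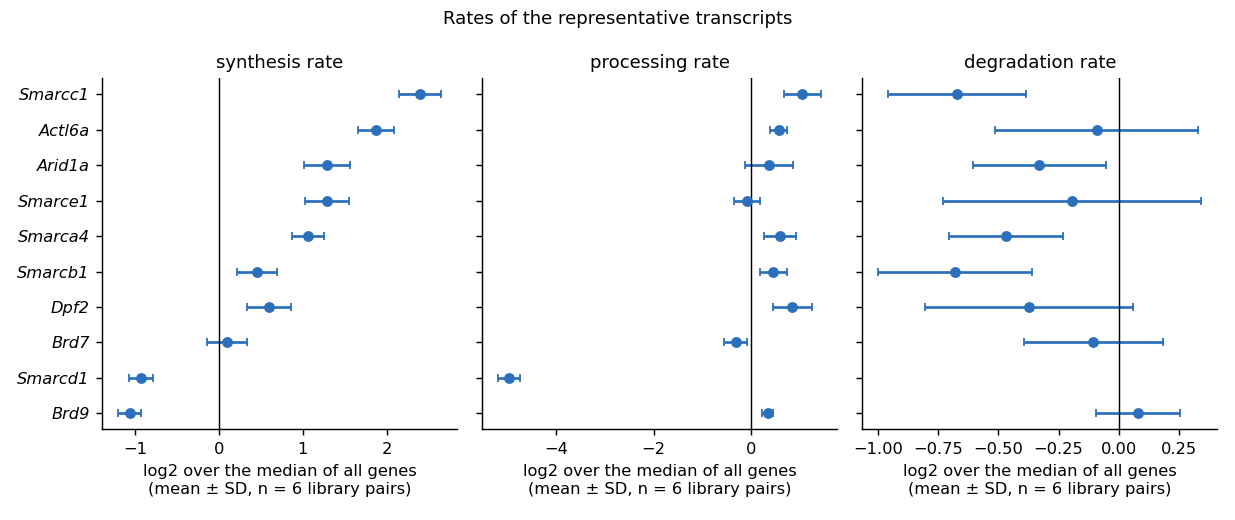
Synthesis, processing and degradation rate of each member's representative transcript as the log2 ratio over the median of all genes, mean ± SD of 6 pairs of a labeled and a total RNA library. Synthesis spans from Smarcc1 at 2.40 to Brd9 at -1.06, Smarcd1 lies far to the left in processing and has no degradation rate, and the degradation of Smarcc1, Smarcb1 and Smarca4 lies below 0.

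The other genes of the family behaved in part alike. Of 21 further SWI/SNF subunits listed, 15 passed the exonic filter, and 4 were lower in labeled RNA and none higher, where 11.9% and 5.38% of all genes were, with a median of -0.19. Actb, the actin subunit, fell by 1.02 (SE 0.16, adjusted p = 0.00210), Smarcd2 by 0.57 (adjusted p = 0.0200), the PBAF subunit Pbrm1 by 0.47 (adjusted p = 0.0172) and Arid2 by 0.37 (adjusted p = 0.0406). In introns 4 of 17 rose, where 30.2% of all genes did, Dpf1 by 1.69, Bcl7b by 1.24, Bcl7c by 1.07 and Bcl7a by 0.85 (adjusted p of 0.00713 to 0.0496), the last 3 being small accessory subunits of the same family. The intronic sum of Dpf1 stood at 0 in total RNA of 30 min, replicate 1, and at 5.18 to 25.0 in the other total RNA libraries. Of 22 subunits of other remodelers, such as the NuRD, ISWI and INO80 families, 7 were lower in exons and 1, Chd2, was higher, beside the same 11.9% and 5.38% of all genes, with a median of -0.41.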

How the data were processed

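Labeled and total RNA of mESCs were analysed in 12 libraries. The authors used STAR v2.5.0 for mapping, with rRNA reads taken out, and RSEM for abundances. The submitters' processing notes name mm10 as the build. The deposited values are a signal per transcript, length-normalized and with one total for every library as judged from the values, so the values do not give the depth of a library and no counting error can be given. Gene names, transcript types and positions came from GENCODE M1 (mm9), which covers 75.1% of Ensembl transcripts in the exonic table.

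Values were summed per gene name, and log2(value + 1) was fitted by limma 3.58.1 (R 4.3.3) with a term for labeling time and the trend option. Calls are at a Benjamini-Hochberg adjusted p below 0.05. Changes of low genes are understated on this scale. Genes needed a mean of at least 20 in exons or 5 in introns, and missing values were taken as 0. Single values were compared with two-sided exact permutation tests (Python 3.11.15, scipy 1.17.1, numpy 2.4.6, pandas 2.3.3). These tests take the libraries as separate units, though they come from 2 cultures. Figures were drawn with matplotlib 3.10.9. INSPEcT, the rate tool of the study, was not run. Tests were checked on simulated data. For exonic sums, 139 of 200 genes with a log2 change of 1 were found, with 8 false calls. For intronic sums, 144 of 200 with a change of 2 were found, with 5 false calls.

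The labels number the replicates, and the methods of the study describe the 2 biological replicates as cultures split from a common one. Deviations of labeled and total libraries with the same number and time correlated at -0.0897, -0.0167 and -0.202 across genes at 15, 30 and 60 min.

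The members and gene lists were chosen with earlier results of these data known. Named were all members, their relatives in the listed pairs, each member's highest transcript, at most 8 further subunits called in exons or introns, and the 4 largest rises and falls among called member transcripts. Chd2, the sequences shown and single libraries were named after their values were seen. The representative transcript, the removal of single libraries and the crossed pairing were chosen after seeing the data. Alternatives were another pseudocount, no filter, quantile normalization, protein-coding transcripts alone, the replicate block, and leaving out each replicate.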

Additional observations from a re-analysis of the deposited data

Results flagged for a closer look

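In each group of 6 libraries, the highest or lowest value was set against the others by Dixon's ratio of its gap to the range, over 52 groups of exonic and intronic values of the representative transcripts and of noncoding shares. Chance flags about 1 in 20 groups, or 2.6 of 52, and 3 stood apart. The exonic value of Smarcd1 in labeled RNA of 15 min, replicate 2, was 66.3, and the nearest of the other 5 was 47.1. The intronic value of Arid1a in total RNA of 15 min, replicate 2, was 11.4, with the nearest at 20.9, and that of Brd7 in the same library was 10.4, with the nearest at 14.5. Their causes were not tested.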

How the results depend on the processing

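The depth of each library is unknown, so low values carry an error that is not measured, and groups of 2 to 6 libraries share 2 cultures. Over all results, 920 values under an alternative were compared with the main one. Estimates had to keep their direction and side of the threshold, and counts of calls to stay within a fixed ratio of the main count. Rates had to move less than the SD of the values without either replicate. These rules were met by 681, while 94 lost a call, 27 gained one, 37 turned direction and 81 counts or rates moved further. Part of this tally was set by the design. Leaving out a replicate, the exact p of a pair of relatives cannot go below 0.25, nor that of a noncoding share below 0.1. Calls of these kinds were then lost whatever the values. Rates from a single labeling time move because all libraries have the same total. For these results the tally does not measure robustness. The causes of the other changes were not tested.

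With the replicate block, 1318 genes and 2 members were called in exons, 2 members in introns, and 4470 transcripts, 9 of them of members. The paired test of the noncoding share of Smarcb1 (4.91 points) and Actl6a (3.22 points) could not pass with 2 of 6 members at its smallest p. With the numbers crossed at 60 min, 2 members were called in introns, where 5516 genes were higher and 42 lower. Under quantile normalization 1682 genes were called in introns, and 1102 genes and 1 member in the ratio. Of transcripts, 5393 were lower and 3417 higher under it, 9 of them of members. In exons 4 members were called, where 1811 genes were lower and 1130 higher, and Actl6a stood at 0.049. Introns stood at -0.18 for Smarca4, -0.53 for Smarcc1, -0.063 for Smarcb1, -0.35 for Smarcd1, -0.63 for Arid1a, -0.0082 for Actl6a, -0.13 for Brd9 and -0.23 for Brd7, and the ratio at -0.41 for Arid1a, -0.086 for Actl6a, -0.19 for Brd9 and -0.24 for Brd7. Introns of Arid1a stood at 0.025 with a pseudocount of 20, 0.012 in protein-coding transcripts and 0.025 in the representative transcript. The representative transcripts gave log2 ratios of 0.14 for Smarcd1 over Smarcd2 and -1.09 for Dpf2 over Phf10. Median rates at 15 min were 2588, 41.9 and 3.48 for synthesis, processing and degradation, at 60 min 668, 9.75 and 0.946, and for the highest transcript 423, 30.8 and 1.84. Median synthesis was 382 for representative transcripts.

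Leaving out a library or a replicate gave 0 to 2958 genes and 0 to 6 members called in exons, 1825 to 8033 genes and 0 to 5 members in introns, 468 to 6248 genes and 0 to 9 members in the ratio, and 0 to 10439 transcripts with 0 to 18 of members. The lowest gene and transcript counts came without replicate 1. Exonic changes then ran from -0.22 to 0.0087 for Actl6a and from -0.085 to 0.027 for Brd9, intronic ones from -0.20 to 0.54 for Smarcc1 and from -0.52 to 0.51 for Arid1a, and the ratio from -0.22 to 1.013 for Arid1a. The noncoding share differed by 2.70 to 7.11 points for Smarcb1 and by 1.75 to 4.69 for Actl6a. With 1 replicate of 3 libraries the exact p of a pair of relatives cannot go below 0.25, so no call was possible. Log2 ratios of gene sums were 4.41 to 4.59 for Smarca4 over Smarca2, 3.37 to 3.52 for Smarcc1 over Smarcc2, -3.05 to -2.76 for Smarcd1 over Smarcd2 and 1.51 to 1.84 for Smarcd1 over Smarcd3. They were 4.13 to 4.17 for Arid1a over Arid1b, 2.61 to 2.64 for Arid1a over Arid2, 4.67 to 6.56 for Dpf2 over Dpf1 and -4.09 to -4.03 for Brd9 under Brd7. Fitted values for Actl6a over Actl6b (9.75 to 9.93) and Dpf2 over Dpf3 (8.59 to 10.3) depend on the pseudocount. The contrasts of 60 and 15 min could not be fitted without a replicate.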
